A study of Mus musculus with 10 samples.

Results

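The growth hormone axis of the liver was described here through a fixed list of 10 genes, drawn up with earlier results of these data known: the receptor Ghr, its kinase Jak2, the transcription factors Stat5a and Stat5b, the feedback inhibitors Socs2 and Cish, the repressors Bcl6 and Cux2, and the secreted outputs Igf1 and Igfals. They were found by symbol after gene identifiers had been matched to names. All 10 were among the 39056 genes of the count table, and all 10 were among the 15811 genes tested.

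Messenger RNA came from 10 C57BL/6 mice aged 11 months, of wild-type (WT) or MLK3-KO genotype (here KO); MLK3, the product of Map3k11, is a mixed-lineage kinase that acts upstream of JNK. Normal liver of water-treated mice gave 2 WT and 2 KO libraries. Liver tumours gave 3 WT and 3 KO libraries; those mice, all male, had received diethylnitrosamine (DEN, a DNA-damaging liver carcinogen) once, at 5 µg per g body weight into the peritoneum, when 2 weeks old. After a pause of 1 week they drank 0.05% phenobarbital (PB, the tumour promoter) until they were killed. Control mice are described as matched for sex and age, and the replicates as biological. The sources used here do not say how the Map3k11 allele was made or in which cells it is lost. No water-treated tumour and no tumour-free treated liver was analysed here, so tumour and treatment cannot be told apart in any comparison of tumour with liver.

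In the liver, pituitary growth hormone binds its receptor on hepatocytes, and the receptor-bound kinase JAK2 phosphorylates STAT5, which enters the nucleus and activates target genes. STAT5b is the main form in hepatocytes; it drives Igf1, the liver's main circulating growth factor, and Igfals, whose product holds IGF1 in a long-lived complex in blood. STAT5 also switches on its own brakes, CIS (Cish) and SOCS2. Pulsed secretion in males and more even secretion in females give mouse liver its sex-biased gene expression, with BCL6 and CUX2 as repressors more active in male and female liver, respectively.

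Total counts per library ran from 12408749 to 18081487, and mitochondrial transcripts took 4.03% to 5.10% of them in the WT tumours and 6.45% to 8.44% in the 7 other libraries. The WT tumours were thus the lowest for this share, as they were for Ghr, Igf1 and Igfals; its part in those results was not tested. Levels are CPM, a library's counts scaled to a common total with TMM factors, and the error of a level is the SD over libraries. Map3k11 had group means of 11.4 ± 5.0 (WT liver) and 5.59 ± 0.30 CPM (KO liver, n = 2 each), and of 12.0 ± 2.4 (WT tumours) and 8.71 ± 2.5 CPM (KO tumours, n = 3 each). Tags lie at the 3' end and the deleted part of the gene is not given, so these levels do not check the knockout. KO tumour 2 stood apart from the other tumours: the tumour markers Gpc3 and Afp were at 0.489 and 3.84 CPM there, against 46.9 and 48.9 CPM (Gpc3) and 446 and 169 CPM (Afp) in KO tumours 1 and 3. In the 4 livers Gpc3 ranged from 0 to 4.96 CPM and Afp from 0.283 to 6.35 CPM. Called differences of the 10 genes that involve the KO tumours are given with and without it. The labelled tissue was matched by abundant hepatocyte transcripts in every library: 7 markers, of which albumin was the highest, summed to 39425 to 40517 CPM in WT liver, 42423 to 46799 in KO liver, 70232 to 89999 in WT tumours and 34482 to 41965 in KO tumours. Between WT tumours and WT liver, Alb, Apoa1 and Serpina1a were called higher and Cps1 lower. A sum of 7 cholangiocyte markers also moved with the groups, from 89.8 to 122 CPM in WT liver and 60.4 to 75.9 in KO liver to 263 to 501 in WT tumours and 52.1 to 279 in KO tumours. Tspan8, Spp1 and Sox9 made up nearly all of that sum, while Krt19, Krt7, Epcam and Cftr had group means of 4.00 CPM or less, and Krt19 averaged 0.694 CPM in the WT livers against 0.522 in the WT tumours. A sum of 12 macrophage markers was 483 to 508 CPM in WT liver, 484 to 768 in KO liver, 708 to 1088 in WT tumours and 665 to 1025 in KO tumours, with 2 of the 12, Cd5l and Lyz2, called higher in WT tumours. A sum of 6 neutrophil markers was 21.9 to 22.6, 11.3 to 11.7, 55.1 to 215 and 17.8 to 197 CPM in the same order, with 0 of the 4 tested called in WT tumours and Ly6g at 0 in all livers and WT tumours. The macrophage markers Clec4f, Timd4 and Vsig4 averaged 35.5, 6.13 and 57.0 CPM in WT liver against 17.7, 1.06 and 54.9 in WT tumours. The remaining macrophage markers had higher means in WT tumours than in WT liver. The part of these marker differences in the results below was not tested. In bulk tissue, fewer cells of a type and less RNA per cell cannot be told apart.

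**Figure D1:**
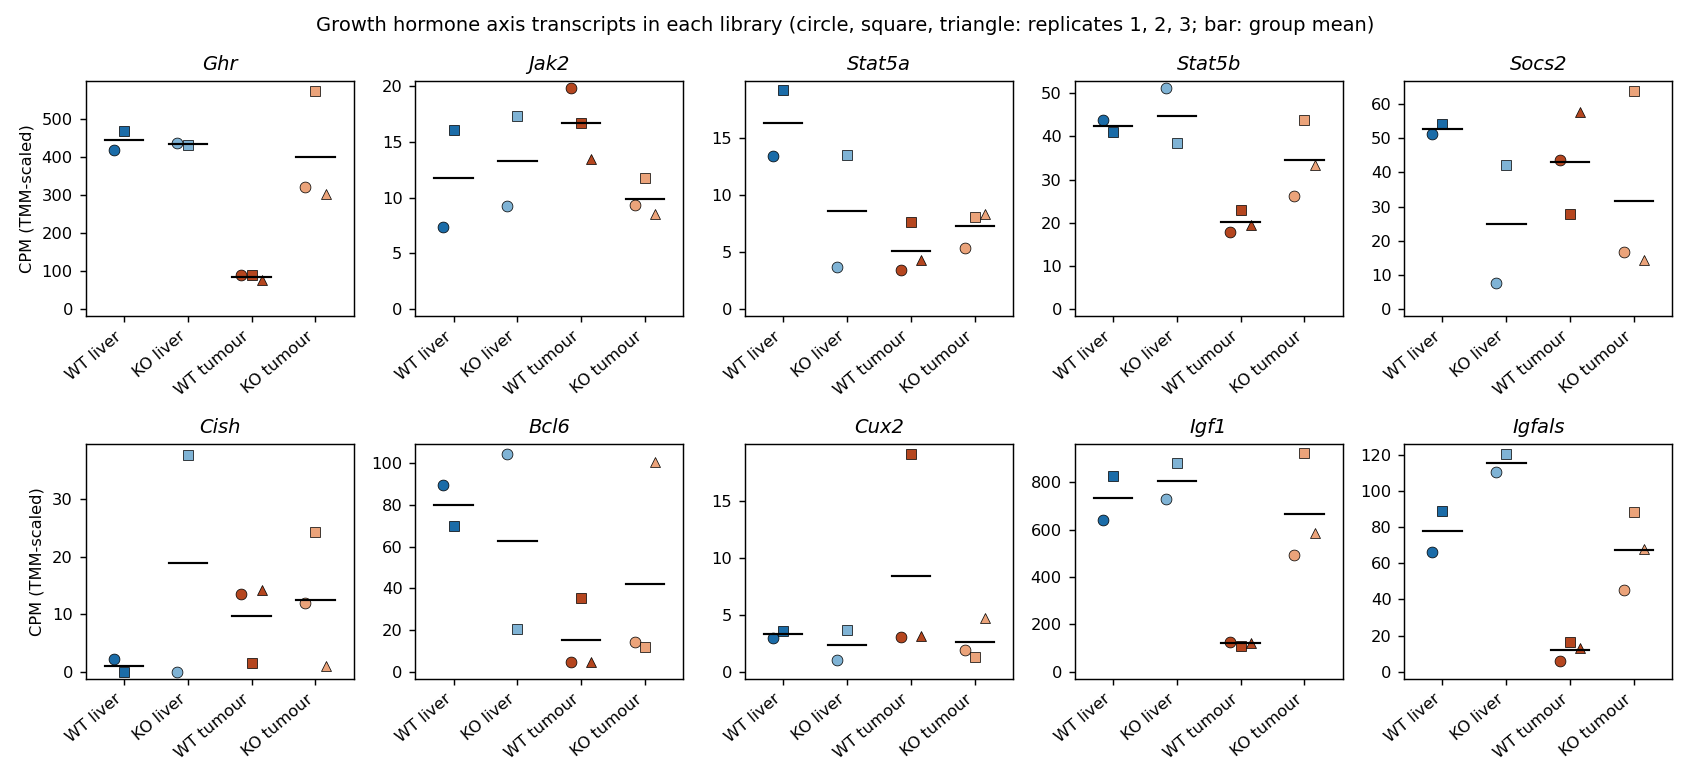
Level of each of the 10 genes in every library, in CPM (y axis, linear and separate for each gene), by group (x axis); circles, squares and triangles are replicates 1, 2 and 3, and the bar is the group mean. Ghr, Igf1 and Igfals lie lower in the 3 WT tumours than in all 7 other libraries, while Cish and Bcl6 spread widely within groups.

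The receptor transcript was low in WT tumours and near liver level in KO tumours. Ghr (chromosome 15, 3317760 to 3583492, minus strand, GRCm38) stood at 419 and 467 CPM in the WT livers, 437 and 431 in the KO livers, 90.1, 90.4 and 75.5 in the WT tumours and 320.2, 574 and 302 in the KO tumours 1, 2 and 3. All 3 WT tumours lay far below every other library, with no overlap, and KO tumours 1 and 3 lay below the 4 livers while KO tumour 2 lay above them. From WT liver to WT tumours Ghr fell 5.19-fold (-2.38 as a log2 fold change, SE 0.27, adjusted p = 4.42e-05, edgeR). It was 4.67-fold higher in KO than in WT tumours (2.22, SE 0.25, adjusted p = 5.54e-05) and still higher without KO tumour 2 (1.87, adjusted p = 3.99e-05). KO tumours did not differ detectably from KO liver (-0.12, 95% interval -0.69 to 0.44, adjusted p = 0.933; -0.48, adjusted p = 0.37, without KO tumour 2), nor KO from WT liver (-0.03, interval -0.65 to 0.59). The change from liver to tumour itself differed between genotypes by 2.25 (SE 0.38, adjusted p = 0.00519), and by 1.89 without KO tumour 2 (adjusted p = 0.00285). By mean the order was WT liver, KO liver, KO tumours, WT tumours (443 ± 34, 434 ± 4.3, 399 ± 150 and 85.3 ± 8.5 CPM), and only the last step exceeded the spread between libraries.

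Jak2 (chromosome 19, 29251828 to 29313080, plus strand), the kinase bound to the receptor, passed no test where Ghr did. Its levels were 7.41 and 16.1 CPM in the WT livers, 9.27 and 17.4 in the KO livers, 19.8, 16.7 and 13.5 in the WT tumours and 9.33, 11.8 and 8.58 in the KO tumours. The 2 tumour groups did not overlap, WT being higher, but both overlapped the livers. None of the 5 comparisons passed the test for Jak2, the difference between KO and WT tumours being -0.75 (SE 0.43, adjusted p = 0.455).

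Stat5b fell in WT tumours by a smaller step than the receptor. Stat5b (chromosome 11, 100780731 to 100850724, minus strand) stood at 43.8 and 41.0 CPM in the WT livers, 51.1 and 38.4 in the KO livers, 17.9, 23.0 and 19.5 in the WT tumours and 26.1, 43.7 and 33.5 in the KO tumours. The WT tumours were again the lowest 3 libraries, without overlap, and the KO tumours lay between them and the livers, KO tumour 2 at liver level. The fall in WT tumours was 2.11-fold (-1.07, SE 0.29, adjusted p = 0.0303). That call ended when the model held only the compared groups (adjusted p = 0.05) and when WT liver 1 (0.13), WT liver 2 (0.0917), WT tumour 1 (0.0857) or WT tumour 3 (0.0727) was left out, although the log2 fold change stayed between -1.20 and -1.01 when any 1 library was left out. Stat5b in KO against WT tumours was 0.77 (SE 0.26, unadjusted p = 0.0101, adjusted p = 0.133; 0.57, adjusted p = 0.472, without KO tumour 2). The genotype difference in its liver-to-tumour change was 0.70 (SE 0.41, adjusted p = 0.533), so a difference between genotypes was not shown for Stat5b.

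Stat5a (chromosome 11, 100859351 to 100885169, plus strand) is the near-identical neighbour of Stat5b, their starts facing each other across 8626 bases. Its levels were 13.4 and 19.2 CPM in the WT livers, 3.72 and 13.5 in the KO livers, 3.39, 7.65 and 4.30 in the WT tumours and 5.32, 8.10 and 8.36 in the KO tumours. WT liver lay above both tumour groups, while the KO liver libraries spread from tumour level to WT liver level. Stat5a in WT tumours against WT liver was -1.67 (SE 0.63, unadjusted p = 0.0177, adjusted p = 0.126), and no other comparison of Stat5a reached an unadjusted p under 0.05. Its annotated 3' end overlaps that of Stat3 on the opposite strand over 72 bases, and the strand setting of the counting is not given, so Stat5a counts could include Stat3 reads. Tag shares of the 2 paralogs are descriptive only, since Stat3 reads could add to Stat5a and the handling of multi-mapping reads is not given. Stat5b held 68.1% to 93.2% of the STAT5 tags over the 10 libraries. Its share was highest in KO liver 1 and lowest in WT liver 2, with the 4 groups overlapping. The summed STAT5 level was 57.2 and 60.2 CPM in the WT livers, 54.9 and 51.8 in the KO livers, 21.3, 30.7 and 23.8 in the WT tumours and 31.4, 51.8 and 41.8 in the KO tumours.

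Like the receptor transcript, the transcripts of the secreted outputs were low in WT tumours and nearer liver level in KO tumours. Whether they depend on the receptor in these samples was not tested. Igf1 (chromosome 10, 87858265 to 87937042, plus strand), the circulating growth factor, stood at 641 and 826 CPM in the WT livers, 727 and 882 in the KO livers, 127, 109 and 123 in the WT tumours and 491, 922 and 588 in the KO tumours. The WT tumours sat close together far below all other libraries, and the KO tumours spread from below the livers to above them. Igf1 fell 6.13-fold in WT tumours (-2.61, SE 0.26, adjusted p = 1.84e-05) and was 5.57-fold higher in KO than in WT tumours (2.48, SE 0.25, adjusted p = 2.16e-05; 2.17, adjusted p = 2.21e-05, without KO tumour 2). In KO tumours against KO liver it was -0.27 (interval -0.83 to 0.29, adjusted p = 0.782; -0.58, adjusted p = 0.308, without KO tumour 2). The genotype difference in the liver-to-tumour change was 2.34 (SE 0.38, adjusted p = 0.00381), and 2.04 without KO tumour 2 (adjusted p = 0.00295). In mean level KO liver came first, then WT liver, KO tumours and WT tumours (804 ± 110, 734 ± 130, 667 ± 230 and 120 ± 9.6 CPM), and of the neighbours only KO and WT tumours differed beyond their spread.

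Igfals (chromosome 17, 24865997 to 24882010, plus strand), the acid-labile subunit of the circulating IGF1 complex, gave 66.3 and 88.7 CPM in the WT livers, 111 and 120.3 in the KO livers, 6.20, 16.7 and 13.3 in the WT tumours and 45.1, 88.1 and 67.9 in the KO tumours. WT tumours were lowest without overlap, and KO tumours lay below KO liver but across the range of WT liver. Igfals fell 6.44-fold in WT tumours (-2.69, SE 0.37, adjusted p = 2.5e-04) and was 5.57-fold higher in KO than in WT tumours (2.48, SE 0.34, adjusted p = 3.84e-04; 2.23, adjusted p = 0.00208, without KO tumour 2). Between KO tumours and KO liver Igfals was -0.78 (SE 0.35, unadjusted p = 0.0434, adjusted p = 0.498, edgeR; -1.03 without KO tumour 2, adjusted p = 0.287). The genotype difference in its change was 1.90 (SE 0.52, adjusted p = 0.0914); DESeq2 called the same difference (1.89, adjusted p = 0.0249), and edgeR without KO tumour 2 gave 1.66 (adjusted p = 0.192). From library to library, the number of Igf1 tags per Ghr tag stayed between 1.21 and 2.04, although both levels fell several-fold in WT tumours. Igf1 tags per Igfals tag ranged more widely, from 6.54 in WT tumour 2 to 20.5 in WT tumour 1.

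**Figure D2:**
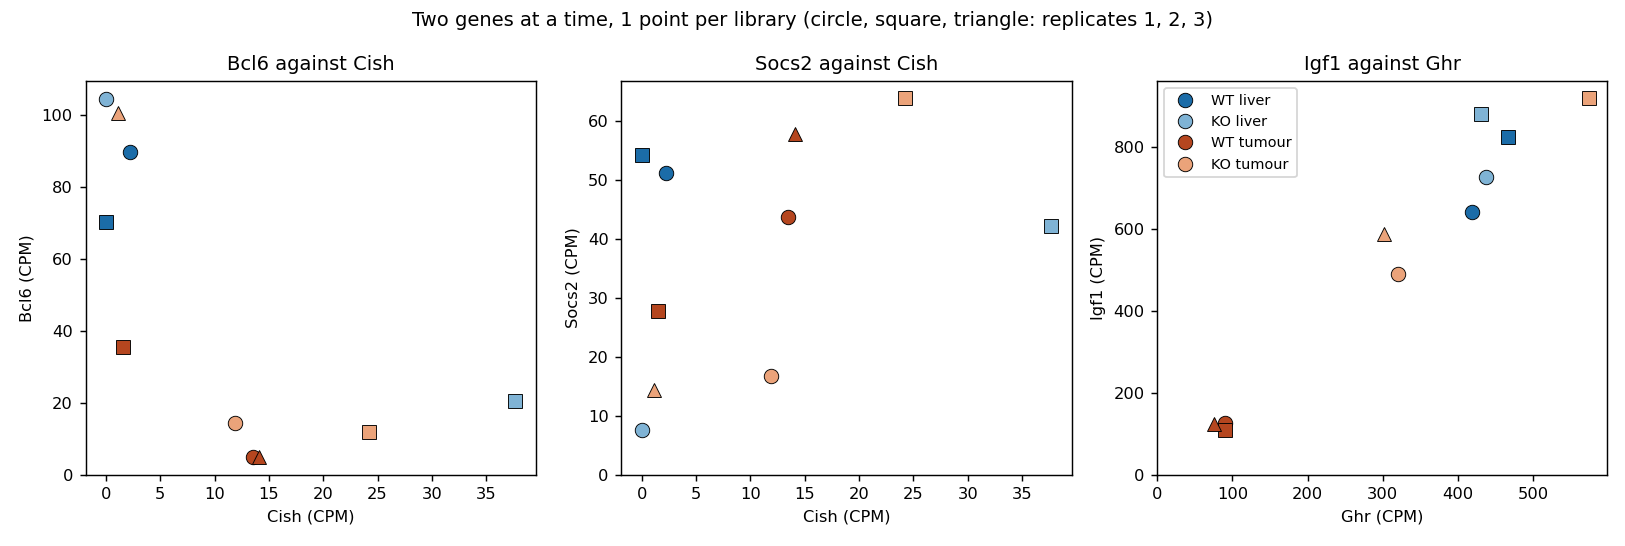
Levels of gene pairs in the 10 libraries, in CPM on both axes, 1 point per library, coloured by group. Libraries with 11.9 CPM or more of Cish have 20.6 CPM or less of Bcl6 (left), Socs2 is not ordered by Cish across the groups (middle), and the 3 WT tumours form a separate low cluster for Ghr and Igf1 (right).

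The feedback inhibitors, which are themselves switched on by STAT5, passed no test in WT tumours against WT liver or in KO against WT tumours, where Ghr, Igf1 and Igfals did. Their SEs in WT tumours against WT liver were larger (Socs2 0.63 and Cish 1.83, beside 0.27 for Ghr). A difference between the inhibitors and those 3 genes was not tested. Cish (chromosome 9, 107296026 to 107302784, plus strand), whose product CIS competes with STAT5 for the receptor, had 2.20 and 0 CPM in the WT livers, 0 and 37.7 in the KO livers, 13.5, 1.53 and 14.1 in the WT tumours and 11.9, 24.2 and 1.08 in the KO tumours. Each group of tumours held 2 high libraries and 1 low one, and the KO livers were at opposite ends of the range. A count of 0 allows up to 0.189 CPM in WT liver 2 and 0.172 CPM in KO liver 1, by counting error of independent reads and set at 3 counts. Cish passed no test; its largest log2 fold change, 4.09 in KO against WT liver, had an SE of 1.96 (adjusted p = 0.693) and rests on single libraries, being -7.10 without KO liver 2 and 11.16 without WT liver 1. With a group at 0 counts, as in both of those fits, the size of the fitted value depends on the prior count. Its variation between libraries of a group was 118% of its level, more than that of 99.95% of the 4126 genes within 2-fold of its mean level.

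Socs2 (chromosome 10, 95385362 to 95417180, minus strand), an inhibitor that recruits a ubiquitin ligase to the receptor, gave 51.1 and 54.1 CPM in the WT livers, 7.61 and 42.1 in the KO livers, 43.6, 27.8 and 57.7 in the WT tumours and 16.8, 63.9 and 14.3 in the KO tumours. WT liver lay above both KO livers, and the other groups overlapped; KO liver 1 and KO tumours 1 and 3 were the 3 low libraries. In WT tumours, where Ghr and Igf1 fell, Socs2 was -0.29 (SE 0.63, interval -1.64 to 1.06, adjusted p = 0.866). KO against WT tumours gave Socs2 -0.44 (SE 0.57, adjusted p = 0.851), a value that single libraries move, being -1.47 without KO tumour 2 (adjusted p = 0.25) and -0.09 without KO tumour 3. Between KO tumours and KO liver Socs2 was 0.35 (SE 0.65), and it ran from -0.67 without KO tumour 2 to 2.06 without KO liver 2. None of the 5 comparisons had an unadjusted p under 0.05 for Socs2 with all libraries. The variation of Socs2 within groups was 48.8%, above 98.5% of the 3728 genes of similar level.

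Bcl6 and Cux2 encode the repressors that set STAT5 targets apart between the sexes. Bcl6 (chromosome 16, 23965052 to 23988852, minus strand) stood at 89.7 and 70.1 CPM in the WT livers, 104 and 20.6 in the KO livers, 4.84, 35.5 and 4.81 in the WT tumours and 14.4, 11.9 and 101 in the KO tumours. The WT tumours lay below WT liver, but KO liver 2 and KO tumour 3 broke the pattern of their groups. In WT tumours against WT liver Bcl6 was -2.41 (SE 0.93, unadjusted p = 0.0201, adjusted p = 0.136), and without WT tumour 2 it was -4.07 and passed the test (adjusted p = 0.0218). In KO against WT tumours it was 1.50 (SE 0.85, adjusted p = 0.456), a value that rests on 1 library, being -0.19 without KO tumour 3. Variation within groups was 67.9%, above 99.7% of the 3458 genes of similar level. Cux2 (chromosome 5, 121856366 to 122050102, minus strand), a female-biased repressor, was low in these males: 2.95 and 3.60 CPM in the WT livers, 1.03 and 3.68 in the KO livers, 3.02, 19.1 and 3.14 in the WT tumours and 1.93, 1.33 and 4.69 in the KO tumours. Only WT tumour 2 stood out, and the other 9 libraries covered a common range. Cux2 in WT tumours against WT liver was 1.36 (SE 1.07, adjusted p = 0.505) and -0.11 without WT tumour 2.

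Cish and Bcl6 tended to opposite ends within a group. In WT tumours Cish was ordered 3, 1, 2 from high to low and Bcl6 2, 1, 3; in KO tumours the orders were 2, 1, 3 and 3, 1, 2; and in KO liver they were 2, 1 and 1, 2. WT liver was the exception, replicate 1 being the higher for both. Socs2 had the same order as Cish in both tumour groups and in KO liver, but not in WT liver. These orders were noticed after the values were seen, were not tested, and rest on 2 or 3 libraries a group.

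The promoters of Bcl6 are shown because its windows held the STAT5 motif most often among the 9 genes with a promoter to search, Socs2 having none. The motif searched was TTCNNNGAA, which is its own reverse complement, so that 1 search covers both strands. RefSeq promoters (GRCm38.p6, 250 bases before each start) were found for 9 of the 10 genes, with 16 windows in all, and 4 of those windows, 2 of Bcl6 and 2 of Igfals, held a match. Over all 32851 promoters of that length, 7.02% held at least 1 match and 0.317% held 2 or more. Bcl6 has 1 match before its first annotated start (chr16:23988853-23989102) and 3 before its second (chr16:23981284-23981533). Both windows are on the minus strand, written 5' to 3' and ending at the start; capitals mark the motif.
Bcl6 start 1: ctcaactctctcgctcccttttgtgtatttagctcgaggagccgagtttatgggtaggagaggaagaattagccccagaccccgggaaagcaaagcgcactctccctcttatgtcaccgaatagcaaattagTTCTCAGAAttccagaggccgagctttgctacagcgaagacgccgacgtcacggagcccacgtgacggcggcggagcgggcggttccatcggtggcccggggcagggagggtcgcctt
Bcl6 start 2: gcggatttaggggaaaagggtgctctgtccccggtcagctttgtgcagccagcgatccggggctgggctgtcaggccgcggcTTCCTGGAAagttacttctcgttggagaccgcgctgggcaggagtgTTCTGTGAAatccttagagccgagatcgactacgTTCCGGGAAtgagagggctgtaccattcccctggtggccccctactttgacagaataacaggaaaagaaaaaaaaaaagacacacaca
The matches begin 118 bases before the first start, and 168, 122 and 88 bases before the second. In Igfals the matches are TTCTCAGAA, 236 bases before its first start, and TTCCTAGAA, 58 bases before its second. A match describes the letters only; STAT5 binding was not measured, and a window without the motif says nothing about STAT5 elsewhere at the gene.

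**Figure D3:**
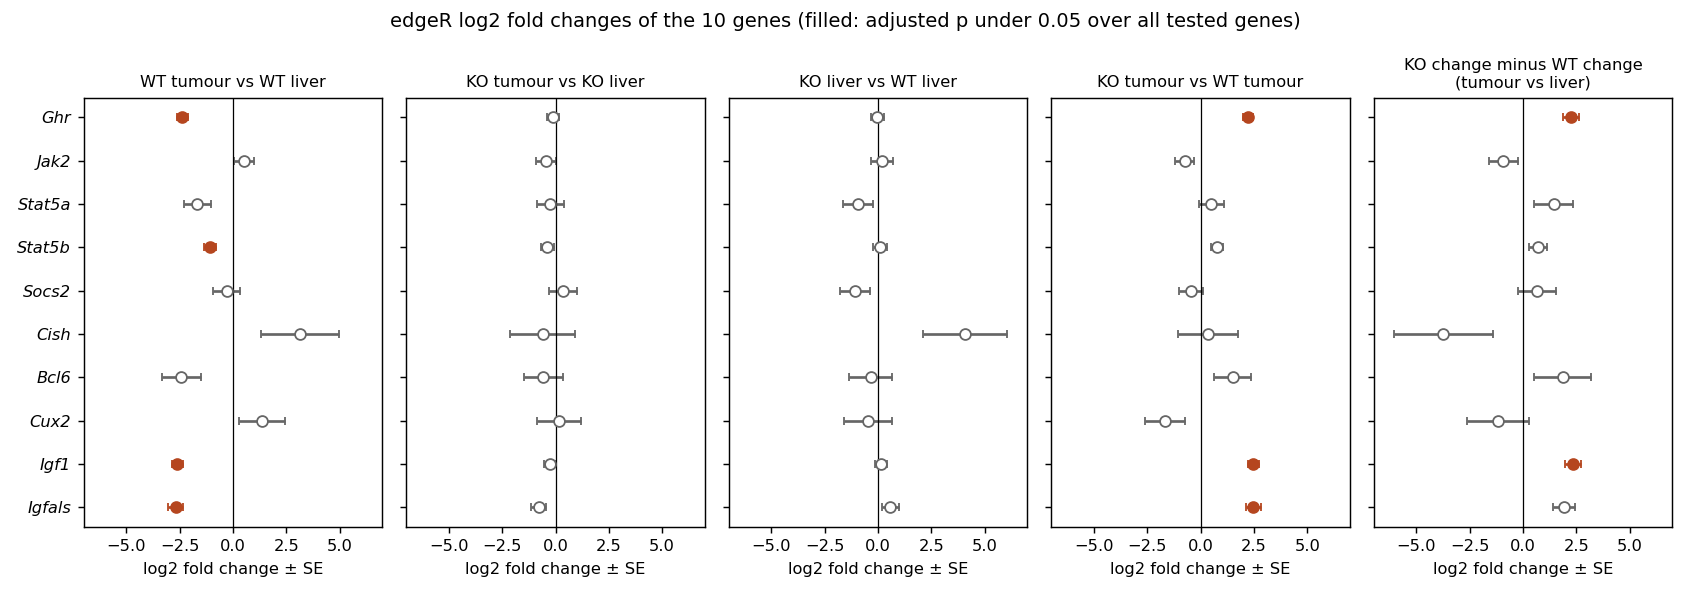
edgeR log2 fold change of each gene (x axis, bars are ± 1 SE) in the 4 comparisons and for the KO change minus the WT change from liver to tumour; filled points passed an adjusted p of 0.05. Filled points appear for Ghr, Stat5b, Igf1 and Igfals on the left, for Ghr, Igf1 and Igfals in KO against WT tumours and for Ghr and Igf1 on the right, and the bars of Cish, Bcl6 and Cux2 are widest.

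Counted over the axis, 4 of the 10 genes (Ghr, Stat5b, Igf1 and Igfals) were lower in WT tumours than in WT liver and none was higher, where 4.70% of all tested genes were lower and 3.64% higher. By an unadjusted p under 0.05, 6 genes passed, the other 2 being Stat5a and Bcl6, both lower, beside 3388 of all 15811 tested genes in either direction. DESeq2 called 4 lower and 0 higher, beside 1103 lower and 1265 higher over all genes. The median log2 fold change of the 10 was -1.37, beside 0.09 over all genes. In KO against WT tumours 3 genes were higher (Ghr, Igf1 and Igfals) and 0 lower, where 3.25% of all genes were higher and 1.27% lower. DESeq2 called the same numbers of the 10, beside 823 higher and 393 lower over all genes. Stat5b was the only further gene of the axis with an unadjusted p under 0.05, which 2362 of all tested genes had. The median was 0.64, beside -0.03 over all genes. These first 2 comparisons share the 3 WT tumours, so they are not independent, and the genotype difference uses all 4 groups.

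None of the 10 genes passed edgeR's test between KO tumours and KO liver, where 0.0759% of all genes were called in either direction. An unadjusted p under 0.05 was found for 1 of the 10 (Igfals), beside 1520 of all 15811 tested genes, and DESeq2 called 0 of the 10. Their median was -0.32, beside 0.06 over all genes, with 8 of 10 below 0. None passed between KO and WT liver, where 0.00632% of all genes were called. Of the 10, 0 had an unadjusted p under 0.05, beside 1151 of all tested genes. DESeq2 called 0, and the median was 0.03, beside 0 over all genes. The difference between genotypes in the liver-to-tumour change was called for Ghr and Igf1, both higher, where 1.22% of all genes were higher and 0.367% lower. DESeq2 called 3 of the 10 higher, adding Igfals, where it called 3.33% of all its genes higher. The median of the 10 was 1.06, beside 0.03 over all genes. The small groups of liver limit the last 2 comparisons, and an adjusted p above 0.05 there does not show equal levels.

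**Figure D4:**
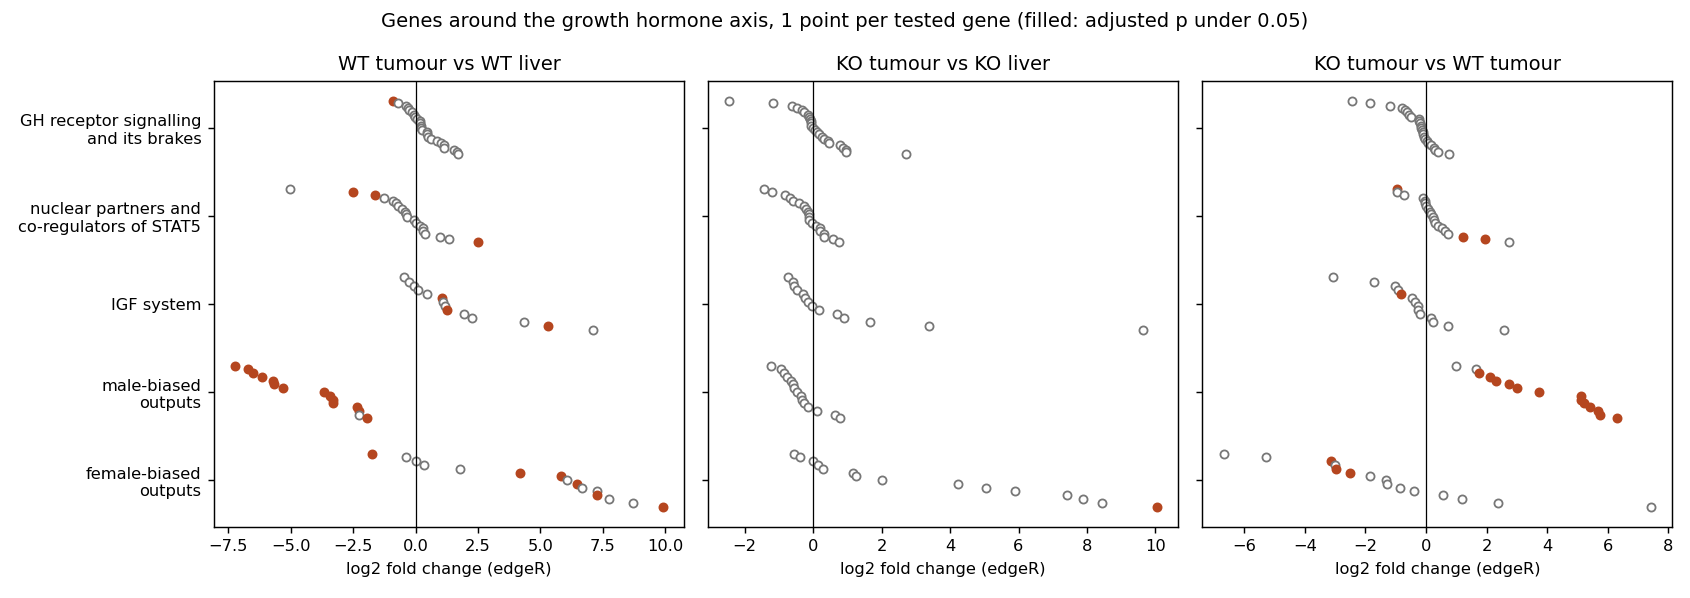
edgeR log2 fold change (x axis) of every tested gene of 5 lists around the axis, 1 point per gene, sorted within a list, in 3 comparisons; filled points passed an adjusted p of 0.05. The male-biased outputs lie to the left in WT against liver and to the right in KO against WT tumours, and the signalling genes cluster around 0 with 1 filled point, in WT tumours.

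Of 25 further signalling genes and brakes (other JAKs and STATs, SOCS proteins, phosphatases and adaptors), 1 fell and 0 rose in WT tumours against WT liver, a share near the 4.70% lower and 3.64% higher of all genes, with a median of 0.22 beside 0.09. DESeq2 called 1 of the 25 higher there, and edgeR called 2 higher without WT liver 1 and 1 higher without WT tumour 2. The gene that fell was Stat3, a STAT also used by cytokine receptors, with 183 ± 30 CPM in the tumours and 348 ± 160 CPM in the livers (-0.92, SE 0.27, adjusted p = 0.0437). Its call ended when only the compared groups were fitted and when any 1 of WT liver 1, the 3 WT tumours, KO tumour 1 or KO tumour 3 was left out. In the 4 remaining comparisons edgeR called 0 of the 25. By an unadjusted p under 0.05 there were 5 between KO tumours and KO liver, 1 between the livers, 5 between the tumours and 1 for the genotype difference. Of all 15811 tested genes, 1520, 1151, 2362 and 2006 had such a p in the same order. These all-gene numbers also stand beside the unadjusted counts of the other lists below. DESeq2 called 1 of the 25 higher between KO tumours and KO liver, beside 385 over all genes, and 0 in the other 3. That gene was Socs5 (DESeq2 adjusted p = 0.00558), with 6.97 ± 3.7 CPM in KO tumours and 1.06 ± 0.20 CPM in KO liver. By edgeR Socs5 was 2.70 there (SE 0.76, unadjusted p = 0.00298, adjusted p = 0.214). Between KO and WT liver it was -2.22 (SE 0.78, adjusted p = 0.606). In KO against WT tumours the smallest p-values were those of Irs2, an adaptor of insulin and IGF1 receptors (-1.18, SE 0.43, adjusted p = 0.178), and Jak1, a kinase of cytokine receptors (-0.56, SE 0.21, adjusted p = 0.187). The brake genes Socs1 and Socs3 had 6.08 ± 3.1 and 8.72 ± 1.2 CPM in WT tumours, beside 4.41 ± 4.8 and 2.99 ± 1.8 CPM in WT liver; neither passed.

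Of 20 genes listed here as nuclear partners and co-regulators of STAT5 (liver-enriched and other nuclear factors, co-activators and co-repressors), 2 fell and 1 rose in WT tumours, beside 4.70% lower and 3.64% higher of all genes, with a median of -0.38 beside 0.09. Whether each listed gene acts with STAT5 in these samples was not tested. Zbtb20, a zinc-finger repressor that silences Afp in adult liver, fell from 761 ± 69 to 243 ± 33 CPM (-1.64, SE 0.23, adjusted p = 3.38e-04). Onecut2, a liver-enriched homeobox factor, fell from 326 ± 25 to 56.7 ± 45 CPM (-2.52, SE 0.52, adjusted p = 0.00666). Tox, an HMG-box factor, rose (2.49, SE 0.71, adjusted p = 0.0412), a call that ended when only the compared groups were fitted and without WT tumour 1, WT tumour 2 or KO tumour 3. DESeq2 called 5 of the 20 lower in WT tumours, beside 1103 over all genes. Without KO tumour 2 edgeR called 4 lower, beside 807 of 15658 tested genes. In KO against WT tumours 2 were higher, Zbtb20 (1.21, SE 0.21, adjusted p = 0.00316) and Onecut2 (1.95, SE 0.49, adjusted p = 0.0306), and 1 was lower, Foxa3 (-0.97, SE 0.26, adjusted p = 0.0467). Of all tested genes, 3.25% were higher there and 1.27% lower. Without KO tumour 2 the counts were 1 higher and 0 lower, and the lower count was also 0 without any 1 of the KO livers, the WT tumours or the other KO tumours; the higher count was 1 without WT tumour 1 or KO tumour 3 and when only the compared groups were fitted. The genotype difference was called for Zbtb20 (1.52, SE 0.33, adjusted p = 0.0307), and the count was 0 without WT liver 1, either KO liver, WT tumour 1, WT tumour 2 or KO tumour 3. For the genotype difference, 1.22% of all tested genes were higher and 0.367% lower. Between KO tumours and KO liver, and between the livers, edgeR called 0 of the 20, with 2 at an unadjusted p under 0.05 in each. DESeq2 also called 0 in both.

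Of 18 further genes listed here as the IGF system, 14 were tested. The list held the ligand Igf2, receptors, IGF-binding proteins and their proteases. It also held Stc2, a protease inhibitor, and the RNA-binding proteins Igf2bp1, Igf2bp2 and Igf2bp3. In WT tumours 3 rose and 0 fell, beside 3.64% higher and 4.70% lower of all genes, and 3 of the 14 had a log2 fold change below 0. The median was 1.13, beside 0.09 over all genes. Igfbp1, a binding protein that sequesters IGF1, had 39.2 to 111 CPM in WT liver, 30.0 to 39.1 in KO liver, 2163 to 4439 in WT tumours, and 10.8 to 662 in KO tumours. It rose in WT tumours (5.32, SE 1.14, adjusted p = 0.00798), and KO tumours ran from below KO liver to far above it (3.37, SE 1.03, adjusted p = 0.263). Igfbp2, another binding protein, rose from 326 ± 44 to 790 ± 220 CPM (1.28, SE 0.29, adjusted p = 0.0125), and Insr, the insulin receptor, rose from 81.6 ± 7.5 to 168 ± 11 CPM (1.04, SE 0.24, adjusted p = 0.0134). The count of 3 fell to 0 when WT liver 1 was left out. Insr was lower in KO than in WT tumours (-0.81, SE 0.21, adjusted p = 0.0391); this list's count was 0 when only the compared groups were fitted and without WT tumour 1, WT tumour 2, KO tumour 1 or KO tumour 3, 2 without KO tumour 2, and 3 without either WT liver. The genotype difference was called for Igfbp2 (-1.74, SE 0.40, adjusted p = 0.0412), a count that became 0 without any 1 of the 4 livers, WT tumour 1, WT tumour 2, KO tumour 1 or KO tumour 3. Of all tested genes, 1.27% were lower in KO than in WT tumours and 0.367% were lower in the genotype difference. Igf1r, the IGF1 receptor, was low in all groups (5.07 ± 1.8 to 8.46 ± 10 CPM as group means) and passed no test. Igf2, the fetal ligand, was at or near 0 in liver, 0.146 to 12.6 CPM in WT tumours and 0 to 94.6 CPM in KO tumours, 1 library carrying nearly all of the latter mean. Between KO tumours and KO liver, and between the livers, edgeR called 0 of the 14, with 3 and 1 at an unadjusted p under 0.05; DESeq2 called 0 in both, and edgeR called 1 higher between KO tumours and KO liver without KO tumour 2.

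Of the 5 lists, the male-biased outputs of growth hormone held the most calls. The sex-biased lists were chosen with earlier results of these data known, so their counts describe the libraries and lend no independent support. Of 15 male-biased hepatocyte genes, 14 fell in WT tumours and 13 were higher in KO than in WT tumours, with medians of -3.68 and 3.74, beside 0.09 and -0.03 over all genes. Of all tested genes, 4.70% were lower in WT tumours and 3.25% were higher in KO than in WT tumours. Elovl3, a fatty acid elongase, had 376 to 391 CPM in WT liver, 160.4 to 191 in KO liver, 1.67 to 3.66 in WT tumours and 79.5 to 192 in KO tumours (-7.22 in WT tumours, SE 0.40, adjusted p = 6.88e-08). Cyp7b1, an oxysterol hydroxylase, had 315 to 408, 224 to 323, 3.13 to 8.34 and 126 to 216 CPM in the same order (5.11 in KO against WT tumours, SE 0.38, adjusted p = 1.06e-06). Cyp4a12b, a fatty acid hydroxylase with near-identical copies whose reads could be shared, fell in WT tumours (-6.51, SE 0.40, adjusted p = 1.33e-07). The genotype difference was called for 10 of the 15, all higher, where 1.22% of all tested genes were higher. The median of the 15 was 3.55, beside 0.03 over all genes. Both the count of 10 and the count of 13 were the same without KO tumour 2. KO tumours against KO liver gave 0 calls by edgeR, 2 genes at an unadjusted p under 0.05, 1 call by DESeq2 and a median of -0.47. KO against WT liver gave 0 calls by edgeR, 1 gene at an unadjusted p under 0.05, 0 calls by DESeq2 and a median of -0.14.

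Of 20 female-biased genes, 15 were tested. In WT tumours 5 rose and 1 fell, where 3.64% of all tested genes were higher and 4.70% lower. Cyp2a4, a steroid hydroxylase, had 24.0 to 42.4 CPM in WT liver, 53.5 to 113 in KO liver, 1568 to 2228 in WT tumours and 91.1 to 544 in KO tumours. It rose in WT tumours (5.84, SE 0.68, adjusted p = 6.39e-05), was lower in KO than in WT tumours (-2.50, SE 0.48, adjusted p = 0.00592) and was the single gene of the list with a called genotype difference (-3.82, SE 0.75, adjusted p = 0.0157), a call that ended without KO liver 2. Of all tested genes, 0.367% were lower in the genotype difference. Cyp2b9, a female-biased cytochrome P450, had at most 0.126 CPM in the livers, 62.6 to 71.2 CPM in WT tumours and 5.09 to 15.3 CPM in KO tumours. Prlr, the prolactin receptor, was the gene that fell (-1.74, SE 0.38, adjusted p = 0.00899); without WT liver 2 the counts were 3 higher and 0 lower. In KO against WT tumours 3 genes were lower (Cyp2b9, Cyp2a4 and Abcd2, a peroxisomal transporter), and 2 without KO tumour 2. In the main fit 0 were higher there. DESeq2 called 1 higher, as did edgeR without the filter on low counts and without WT tumour 3. Of all tested genes, 1.27% were lower and 3.25% higher in this comparison with all libraries. In KO tumours against KO liver 1 gene rose, Cyp2b9, where 0.0759% of all tested genes were called in either direction. Without KO tumour 2, 3 genes rose, where 189 of 15658 tested genes were higher. The count was 0 when only the compared groups were fitted. KO against WT liver gave 0 calls by edgeR, 1 gene at an unadjusted p under 0.05 and 0 calls by DESeq2. With genes at 0 in a group set to their 3-count limit, the median was 2.98 in WT tumours, 1.67 between KO tumours and KO liver, 0.46 between the livers and -1.32 between the tumours, where 6.08, 2.02, 0 and -1.32 were the fitted medians. Over all genes the fitted medians were 0.09, 0.06, 0 and -0.03 in the same comparisons.

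The genes whose log2 levels were most like Ghr over the 10 libraries were Adipor2 (an adiponectin receptor; Pearson r = 0.993), Nat8f1 (0.993), Igf1 (0.990) and Pecr (a peroxisomal reductase; 0.989), out of 7214 candidates with a mean of at least 10 CPM. For Igf1 they were Ugt3a2 (0.995), Pecr (0.995), Pon1 (paraoxonase; 0.995) and Ndrg2 (0.993). All of these were low in the WT tumours: Adipor2 had 168 to 187 CPM there and 445 to 765 in KO tumours, and Pon1 had 36.0 to 61.1 and 325 to 739 CPM. These coefficients are descriptions without a p, since the 10 points fall into a low cluster of 3 WT tumours and a high cluster of 7 libraries. Within the axis, Ghr was nearest to Igf1, then Igfals (0.940) and Stat5b (0.920), and far from Socs2 (-0.14) and Cish (-0.23). The genes most like Socs2 were others: Ids (a lysosomal sulfatase; 0.947), Smurf2 (a ubiquitin ligase; 0.915), BC002059 (0.883) and Herpud2 (0.874).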

How the data were processed

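Messenger RNA of 10 mouse liver or liver tumour samples was counted per gene. Per the labels' protocols the libraries were QuantSeq 3' (forward, strand-specific), so each read lies near a transcript's 3' end. The authors deposited 1 table of whole-number read counts, not normalized; per the submitters' processing notes, BWA and featureCounts were used on mm10. The sources used here do not give their versions, the strand setting or the handling of multi-mapping reads. No molecular identifiers are mentioned, so reads are not independent molecules, and limits set at 3 counts (0.156 to 0.231 CPM) cover counting error only.

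Symbols were matched on identifiers without version (38872 matched, 184 did not). Positions are from GENCODE M21 on GRCm38, again without identifier version. Genes with counts numbered 21045; filterByExpr kept 15811. In R 4.3.3, edgeR 4.0.16 fitted 1 quasi-likelihood model to all 10 libraries with TMM scaling, a term per group and no covariate; a Benjamini-Hochberg adjusted p under 0.05 was called, and SEs were computed from each fold change with the F value of its test. The p-values measure the spread between these samples. The model was run on counts simulated from its own form and fitted spread, with 200 changed genes. That run cannot check how well the model fits these data. DESeq2 1.42.0, other scaling, other filters, fewer groups in the model, the replicate block and omission of each library were alternatives.

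The members and lists were chosen with earlier results of these data known. Genes picked for naming were the 10 members, up to 3 genes a list and comparison past the test with the smallest p (otherwise 2, as values), the 4 genes most like Ghr, Igf1 and Socs2, and Map3k11. Not every list gene picked in this way is given above. Socs1, Socs3, Igf1r, Igf2 and Prlr were added after their values were seen. Promoters are from RefSeq (GRCm38.p6). Same-group libraries were not duplicates (chi-square per degree of freedom 39.8 to 94.9).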

Additional observations from a re-analysis of the deposited data

Results flagged for a closer look

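Igf1 and Ghr are listed for a closer look because their change from liver to tumour differed between the genotypes by a direct test of that difference. For Igf1 the KO change minus the WT change was 2.34 on the log2 scale (SE 0.38, adjusted p = 0.00381, edgeR), and for Ghr it was 2.25 (SE 0.38, adjusted p = 0.00519). All 3 WT tumours were below both WT livers for both genes, while the KO tumours lay on both sides of the KO livers. The difference kept its call in all 16 alternatives for each gene, with log2 values of 2.04 to 2.52 for Igf1 and 1.89 to 2.42 for Ghr.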

How the results depend on the processing

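Ghr, Igf1 and Igfals were called in all 17 alternatives in WT tumours against WT liver and in KO against WT tumours. Over all members, comparisons and alternatives, 830 values were computed; of 151 that belonged to a called result, 145 were still called in the same direction and 6, all of Stat5b in WT tumours, were not. Another 10 values became called, and 28 values called in neither fit changed sign. Without a filter on low counts, 1 member (Cish) was called higher in tumours than in liver of WT mice, 1 (Cish) was called higher in KO than in WT liver, and in the genotype difference 1 was lower (Cish) and 4 were higher (Ghr, Igf1, Igfals and Bcl6). Of the 21045 genes tested without that filter, 925 were higher and 965 lower in WT tumours, and 746 were higher in KO than in WT tumours. Between the livers 39 were higher, and in the genotype difference 432 were higher and 203 lower. Bcl6 was then also called lower in WT tumours (-2.42, adjusted p = 8.11e-13) and higher in KO than in WT tumours (1.50, adjusted p = 9.74e-06); the cause was not tested. Leaving out 1 library at a time gave 3 to 5 members lower in WT tumours, 3 higher in KO than in WT tumours and 2 higher in the genotype difference.

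Replicate numbers did not pair the samples: deviations of same-numbered libraries correlated at -0.00615 to 0.0238 over 13 pairs, none over 0.1, although 9 of 10 libraries correlated best with their own number. With the replicate block, 3 members were lower in WT tumours (Stat5b -1.06, adjusted p = 0.0717), 3 were higher in KO than in WT tumours, and 3 were higher in the genotype difference (Igfals 1.90, adjusted p = 0.0362). Of all 15811 genes tested with it, 620 were lower in WT tumours, 491 higher in KO than in WT tumours and 203 higher in the genotype difference. The block also ended the calls of Stat3 in WT tumours and of Zbtb20 in the genotype difference, each list then holding 0 such calls.

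Over all genes the number of calls differed by tool: between KO tumours and KO liver, edgeR called 12 higher and 0 lower and DESeq2 385 and 42; between KO and WT liver, 0 and 1 against 89 and 113. Cux2 and Stat5a were not tested with the filter of a mean of at least 10 CPM. Cux2 had 18 to 262 counts a library, and Cish had 0 in 2 libraries and 532 in another.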
